A study of Mus musculus with 6 samples.

Results

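The genes described here are the numbered Zfp zinc finger genes of the mouse, chosen as all rows of the count table whose symbol is Zfp followed by a number and at most 1 letter and whose mean over the 6 libraries was at least 5 CPM (counts scaled to a common library total). Of 25965 rows in the table, 362 carried such a symbol, and 220 of these reached 5 CPM. The other 142 lay below it, 53 of them at 0 in every library. Within the family, members were thus chosen by their mean level over all 6 libraries. The members just inside it were Zfp248 with a mean of 5.00 CPM and Zfp189 with 5.33 CPM, and the rows just outside were Zfp658 with 4.97 CPM and Zfp560 with 4.95 CPM.

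RNA was sequenced from 6 mouse cell lines positive for BCR-ABL, the fusion kinase of the Philadelphia chromosome. KO1, KO2 and KO3 had the Cdk6 -/- genotype: they were electroporated with the Cas9 and GFP plasmid pSpCas9(BB)-2A-GFP (px458) carrying sgRNAs against CDK6. WT1, WT2 and WT3 were Cdk6 wild type and, per the labels, the control was the same plasmid without those sgRNAs. GFP-positive cells were sorted and grown out from single cells, so a line stands for a clone, and loss of the CDK6 protein was checked by Western blot, per the labels. Cas9, the plasmid and BCR-ABL were shared by both groups. The labels do not say whether the 3 lines of a group came from separate mice, so p-values measure the spread between these lines.

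Zfp is the mouse name for proteins with C2H2 zinc fingers, small folds in which paired cysteines and histidines hold a zinc ion and which mostly read DNA. A large share of the family also carries a KRAB domain, which recruits the co-repressor TRIM28 and, through it, the histone methyltransferase SETDB1. Many KRAB zinc finger proteins silence transposable elements, and their genes lie in tandem clusters that duplicate fast in evolution. Other numbered Zfp genes share only the naming: they include RNA-binding, ribosome assembly and ubiquitin ligase proteins.

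Library totals ranged from 17859519 to 24108563 counts, so that 3 counts equalled 0.124 to 0.168 CPM. The Cdk6 transcript, the target, had 42.1, 72.6 and 40.4 CPM in the KO lines, in the order of their numbers, and 39.5, 44.96 and 55.8 CPM in the WT lines. Its groups overlapped and its log2 fold change was 0.14 ± 0.29 (SE), with an adjusted p of 0.900 by edgeR and a two-sided exact permutation p of 0.8, the smallest possible being 0.1. The transcript level therefore does not check the labels, which rest on protein. Of 10 B lineage markers all 10 were above 1 CPM, with summed levels of 3718 to 5143 CPM in KO lines and 4426 to 4519 CPM in WT lines. Of 8 T lineage markers 3 were above 1 CPM (33.7 to 82.8 CPM summed in KO lines, 65.6 to 74.0 CPM in WT lines), with Cd3e, Cd4 and Cd8a at 0. Of 8 myeloid markers 2 were above 1 CPM (16.0 to 43.4 CPM summed in KO lines, 28.8 to 45.3 CPM in WT lines), with S100a8, Elane and Ly6g at 0. No erythroid or stromal marker exceeded 1 CPM.

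Library KO2 stood apart from the other libraries. Over the Zfp genes its Pearson correlation with them on log2 CPM ranged from 0.647 to 0.839, the nearest being WT2, whereas WT1 and WT3 correlated at 0.994. WT2 lay between KO2 and the rest. Most medians over sets of genes are therefore also given without KO2 or without both.

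In sequence and level the 220 genes were mixed. A KRAB motif was found in the encoded protein of 94 of them and not in 126, by a pattern that misses divergent KRAB domains. The median number of C2H2 fingers was 11 with a KRAB match and 7 without, and Zfp462 had the most with 33. In 8 members no classical finger was found. The median level was 23.0 CPM, against 54.2 CPM over all 9316 genes of at least 5 CPM, and 53 members reached 50 CPM. Summed over the 220 genes, levels were 7881 to 9194 CPM per library. Per kb of transcript the highest was Zfp207, the mouse BuGZ, which binds spindle microtubules and kinetochores, at 215 CPM per kb. Zfp706, an inhibitor of Klf4 in mouse embryonic stem cells, followed at 70.0 CPM per kb. Zfp385a, a p53-associated RNA-binding protein, had 58.7, Zfp106, an RNA-binding protein of motor neurons and muscle, 57.8 and Zfp146 42.9 CPM per kb. None of these 5 was a KRAB match.

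The question put to the family was whether it shifted as a whole in the knockout lines. On the log2 scale of the edgeR fit the median fold change of the 219 members tested was 0.12, with 158 above 0, against a median of 0.01 over the 10896 genes tested, of which 52.8% were above 0. The middle of the members' distribution ran from -0.03 to 0.28 (quartiles). The shift was small, and it was not the same in every line. Relative to each gene's mean over the 6 libraries, the median member stood at 0.13 in KO1, -0.08 in KO2 and 0.18 in KO3 and at -0.01 in WT1, -0.13 in WT2 and -0.02 in WT3. KO1 and KO3 lay above all WT lines, while KO2 lay below WT1 and WT3, so that the groups overlapped as 3 against 3. Taken as same-numbered pairs of KO minus WT, the member medians were 0.16, 0.06 and 0.21, all above 0, against 0.03, -0.04 and 0.04 over the other genes; what a shared number means is not in the labels. The same medians over the other 9096 genes of at least 5 CPM were 0.03, -0.06 and 0.05 in the KO lines and 0.00, -0.01 and 0.00 in the WT lines. Without KO2 the members' median fold change was 0.17, with 163 of 219 above 0, and without KO2 and WT2 it was 0.13, with 160 of 219 above 0. In bulk RNA, fewer cells expressing a gene and less RNA per cell cannot be told apart.

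**Figure D1:**
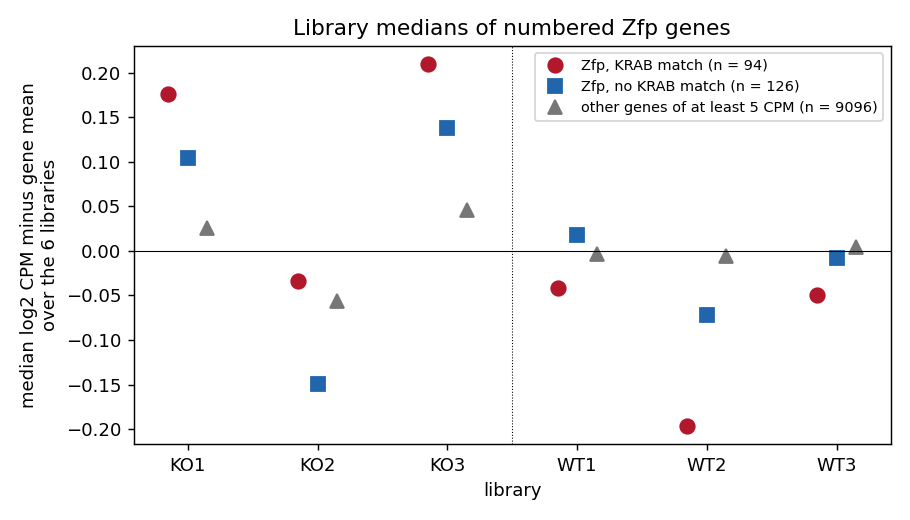
Median of log2 CPM minus the gene's mean over the 6 libraries, for each library, over Zfp genes with a KRAB match, Zfp genes without one and all other genes of at least 5 CPM. KO1 and KO3 lie highest in both Zfp classes, at 0.10 to 0.21, and the KO2 median is at -0.03 for KRAB matches and -0.15 for the others.

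No member passed the edgeR test after Benjamini-Hochberg adjustment (threshold 0.05), and the lowest adjusted p among them was 0.479. This test called 0.0% of all genes in either direction. At an unadjusted p under 0.05, 19 members were higher in KO lines (8.68%, against 4.35% of all genes tested) and 6 were lower (2.74%, against 5.1%). DESeq2 called 3 members higher and 0 lower at an adjusted p under 0.05; it called 0.731% of all genes higher and 1.27% lower. On simulated data DESeq2 recovered more of the changed genes than edgeR and also made more false calls. The simulation held no difference shared by KO2 and WT2, so it does not rate the calls made here. In 37 members every KO value exceeded every WT value, which is 16.8%, against 11.1% of all genes of at least 5 CPM. In 7 members every KO value was under every WT value, which is 3.18%, against 9.13%. In either direction together, 20.0% of members were separated, against 20.2% of all genes. These separations were counted on CPM from column totals. With CPM scaled by TMM factors 30 members were separated upward and 9 downward, and with RLE factors 35 and 8. The same shares over all genes are not given here. Zfp456, Zfp874a and Zfp874b are among the 37 and reached 5 CPM only through their KO values. Without KO2, 50 members were higher at an unadjusted edgeR p under 0.05, against 9.12% of all genes, and 8 were lower, against 9.72%. Those counts make 22.8% and 3.65% of the members.

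Without KO2 and WT2, KO1 and KO3 lay above WT1 and WT3 in 118 members (53.6%, against 33.4% of all genes) and below in 15 (6.82%, against 22.1%). In this comparison of 2 lines with 2, DESeq2 called 6 members higher, against 1.24% of all genes, and 1 lower, against 1.81%. The one lower was Zfp709, at 14.5, 48.3 and 15.1 CPM in the KO lines and 25.7, 19.7 and 22.2 CPM in the WT lines; it was singled out after its values were seen. Its KO2 value is the highest of the 6, and the groups overlapped when all libraries were kept.

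The KRAB matches had larger fold changes than the rest of the family. Their median log2 fold change was 0.23, with 79 of 94 above 0, and for 24 KRAB matches every KO value exceeded every WT value, while 1 was separated the other way. For members without a KRAB match the median was 0.07, with 79 of 125 above 0, and the groups separated upward in 13 and downward in 6. These upward separations made up 25.5% and 10.3% of the classes, against 11.1% of all genes, so that the members without a KRAB match lay near the share of all genes. At an unadjusted edgeR p under 0.05, 12 KRAB matches were higher (12.8%) and 1 lower (1.06%), and of the others 7 were higher (5.6%) and 5 lower (4.0%), against 4.35% and 5.1% of all genes tested. Both counts of higher KRAB matches include Zfp456, Zfp874a and Zfp874b of chromosome 13. They reached 5 CPM only through their KO values, so the choice of members favoured their rise. Off chromosome 13, 18 of 83 KRAB matches were separated upward (21.7%) and 1 downward (1.2%). Of these 83, 7 were higher and 1 lower at that p. By library the KRAB median was 0.18 in KO1, -0.03 in KO2 and 0.21 in KO3, against -0.04 in WT1, -0.20 in WT2 and -0.05 in WT3. All 3 KO medians were thus the higher ones, KO2 by 0.01 over WT1. Without KO2 the KRAB median was 0.23 (73 of 94 above 0), and that of the others 0.12 (90 of 125). Without KO2 and WT2 they were 0.21 and 0.11. The classes also differed in transcript GC content: of 41 members at 55% or more, 39 had no KRAB match, with a median of -0.02. Under 40% the medians were 0.25 with a KRAB match (n = 30) and 0.21 without (n = 11). From 40 to 45% they were 0.14 (n = 37) and 0.11 (n = 23), and from 45 to 50% 0.14 (n = 15) and 0.08 (n = 30). From 50 to 55% they were 0.27 (n = 10) and 0.05 (n = 22). Without KO2 and WT2 they were 0.31 and 0.21 under 40%, and 0.10 and 0.18 from 40 to 45%, where the order was reversed. From 45 to 50% they were then 0.12 and 0.10, and from 50 to 55% 0.36 and 0.07. The 39 members at 55% or more without a KRAB match then had a median of 0.10. The difference between the classes was not tested.

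**Figure D2:**
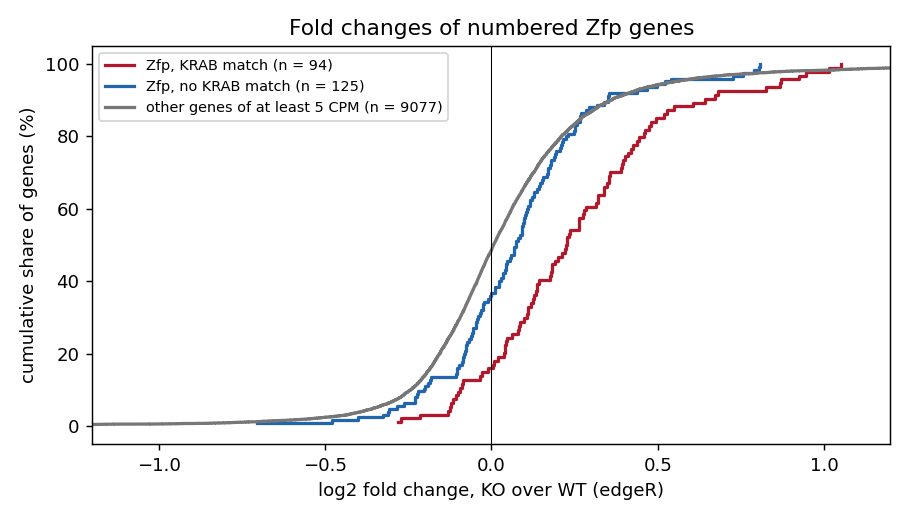
Cumulative share of genes (%) by log2 fold change, KO over WT, from edgeR, for Zfp genes with a KRAB match, Zfp genes without one and all other genes of at least 5 CPM. The KRAB curve lies to the right of the other curves through its middle range, with medians of 0.23, 0.07 and 0.01, and the axis is cut at 1.2 on either side.

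Genes outside the numbered Zfp series were used for comparison. Another 14 genes of at least 5 CPM with a KRAB match had a median of 0.21, with 11 above 0, and 0.17 without KO2 and WT2. The 28 Zbtb genes, which pair zinc fingers with a BTB domain, had a median of 0.06, with 16 above 0, and 0.05 without those libraries. The 11 Zkscan and Zscan genes, which carry a SCAN domain, had 0.14, with 9 above 0, and 0.21 without them. The 24 tested Zfp rows of 3 to 5 CPM had a median of 0.41, with 19 above 0, and 0.34 without them. The 14 KRAB matches and the 11 Zkscan and Zscan genes were not chosen to exclude each other, so these lists may share genes. By number of fingers, the median was -0.11 in the 8 members with none, 0.05 with 1 to 4, 0.15 with 5 to 9, 0.14 with 10 to 14 and 0.20 with 15 or more. With KO2 and WT2 left out these medians were -0.06, 0.07, 0.16, 0.15 and 0.26.

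Large separated differences were seen in low-expressed KRAB zinc finger genes, of which those called by DESeq2 come first. Zfp94 on chromosome 7 was at 8.62, 12.04 and 12.3 CPM in the KO lines, against 4.98, 6.51 and 4.59 CPM in the WT lines. Every KO line lay above every WT line. Its log2 fold change was 1.02 ± 0.25 with an edgeR adjusted p of 0.479, and DESeq2 called it with an adjusted p of 0.0301. Zfp874b was at 6.55, 8.18 and 11.6 CPM in the KO lines and 4.07, 4.25 and 4.15 CPM in the WT lines. Zfp874a was at 6.33, 8.23 and 8.57 CPM in the KO lines and 4.60, 3.46 and 3.95 CPM in the WT lines. The groups were apart in both genes, with log2 fold changes of 1.05 ± 0.26 and 0.92 ± 0.23, edgeR adjusted p of 0.479 for each and DESeq2 adjusted p of 0.0376 and 0.0460. Zfp874a and Zfp874b were under 5 CPM in every WT line and reached a mean of 5 CPM only through their KO values. The choice of members thus favoured a rise in them. They are also near copies of each other, so reads may have been shared between them and their values are not independent. Without KO2 and WT2 the DESeq2 adjusted p was 0.0736 for Zfp94, 0.390 for Zfp874a and 0.171 for Zfp874b.

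The promoter windows of these 3 genes, and of Zfp456 from the same cluster as Zfp874a, are shown because these genes had large separated differences and 3 of them lie within 1 cluster. Each holds 250 bases before and 50 after the start given by RefSeq (GRCm38.p6), on the minus strand, read 5′ to 3′: Zfp874a at chr13:67451575-67451874, Zfp874b at chr13:67484204-67484503, Zfp456 at chr13:67375714-67376013 and Zfp94 at chr7:24316617-24316916. Capitals mark CCAAT and the core of the site known for the transcription factor ZNF143 (ACTACA, any 2 bases, TCCCA), on either strand.
Zfp874a: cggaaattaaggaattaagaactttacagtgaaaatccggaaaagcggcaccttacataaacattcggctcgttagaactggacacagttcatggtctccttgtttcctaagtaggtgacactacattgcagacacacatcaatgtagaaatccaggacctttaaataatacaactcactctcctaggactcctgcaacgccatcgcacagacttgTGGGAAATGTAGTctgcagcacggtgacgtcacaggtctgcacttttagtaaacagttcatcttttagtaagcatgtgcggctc
Zfp874b: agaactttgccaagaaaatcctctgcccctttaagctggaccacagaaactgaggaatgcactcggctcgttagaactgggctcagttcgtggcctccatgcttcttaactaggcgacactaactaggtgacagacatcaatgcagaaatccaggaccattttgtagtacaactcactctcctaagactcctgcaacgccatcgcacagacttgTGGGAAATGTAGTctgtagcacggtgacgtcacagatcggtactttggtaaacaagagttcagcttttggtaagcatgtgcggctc
Zfp456: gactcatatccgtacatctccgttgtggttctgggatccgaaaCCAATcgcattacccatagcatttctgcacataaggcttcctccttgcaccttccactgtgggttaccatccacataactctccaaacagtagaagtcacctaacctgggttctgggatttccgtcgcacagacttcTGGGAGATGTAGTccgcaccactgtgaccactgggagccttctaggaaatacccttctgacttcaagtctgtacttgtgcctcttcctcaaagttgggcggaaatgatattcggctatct
Zfp94: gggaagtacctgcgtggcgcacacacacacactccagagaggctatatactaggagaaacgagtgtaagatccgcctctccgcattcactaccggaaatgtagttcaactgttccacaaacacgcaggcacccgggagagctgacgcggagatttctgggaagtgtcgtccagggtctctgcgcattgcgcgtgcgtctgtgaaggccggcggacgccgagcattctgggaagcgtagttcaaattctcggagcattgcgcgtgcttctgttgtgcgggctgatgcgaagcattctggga
The windows of Zfp874a and Zfp874b were identical in 75.3% of aligned columns, and the other pairs in 47.4% to 53.3%. An exact ZNF143 core stood in the 3 chromosome 13 windows, in each as its reverse complement, and not in that of Zfp94. The Zfp94 window holds tgggaagtgtcgt and tgggaagcgtagt, each differing from that reverse complement by a single base. This core was picked after these windows had been read.

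Promoter windows were found for 183 of the 220 members, 233 windows in all, among 32851 in the RefSeq table. The ZNF143 core stood in 28 of the 233 member windows and in 21.4% of those of KRAB matches, against 1.47% of all windows. The ETS site CCGGAAG stood in 21.9% and 25.5%, against 8.86%, and CCAAT in 45.5% and 56.1%, against 37.4%. The E-box CACGTG was in 6.01% and 7.14%, against 7.15%, the E2F site TTTCCCGC in 2.58% and 2.04%, against 1.07%, and TATAAA in 8.15% and 6.12%, against 13.6%. All were searched on both strands, and matches of different motifs overlapped in 1 member window. Member windows held a median of 17 CpG and those of KRAB matches 11.5, against 7 over all windows. All windows include those of genes under 5 CPM, whereas members were chosen by level. Among tested genes of at least 5 CPM with a window, 28 members held the core and 155 did not. Of the other genes 320 held it and 7005 did not, a smaller contrast than with all windows. The other motifs and CpG were not compared at matched level. A match is a description of letters and was not tied to binding. The 28 members with the ZNF143 core had a median log2 fold change of 0.25, with 21 above 0, and the 155 members with a window but no core had 0.11, with 107 above 0. Among other genes of at least 5 CPM the medians were 0.02 with the core (n = 320) and 0.01 without it (n = 7005). The 3 genes whose windows prompted the core are among the 28; over the other 25 the median was 0.22, with 18 above 0. Leaving out KO2 and WT2, it was 0.18 over these 25 and 0.13 over the members without the core. Windows of KRAB matches held the core more often than member windows as a whole. The KRAB matches, with or without the core, had a median of 0.23, and of 0.21 without KO2 and WT2. Members with and without the core were not compared within the KRAB matches, so a difference by core apart from the KRAB match was not tested. Zfp143, the mouse gene for ZNF143 and itself a member, was at 33.3, 37.8 and 36.1 CPM in the KO lines and 27.6, 31.7 and 31.8 CPM in the WT lines. The groups did not overlap, and its log2 fold change was 0.22 ± 0.11 with an edgeR adjusted p of 0.592; it was looked up after the core had been seen.

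Zfp456, Zfp52, Zfp944, Zfp369 and Zfp595, all KRAB matches, were the other 5 of the 8 largest upward separations. Zfp456 was at 5.93, 9.22 and 8.18 CPM in the KO lines and 4.27, 4.09 and 4.25 CPM in the WT lines, with a log2 fold change of 0.87 ± 0.25. It too was under 5 CPM in every WT line and was a member only through its KO values. Zfp52 was at 8.23, 20.3 and 13.5 CPM in the KO lines and 7.05, 7.82 and 6.77 CPM in the WT lines (0.95 ± 0.36). Zfp944 was at 15.7, 35.5 and 17.4 CPM in the KO lines and 13.6, 11.8 and 12.2 CPM in the WT lines (0.87 ± 0.37). In Zfp52 and Zfp944 the KO2 value was the highest by far, and without KO2 their log2 fold changes were 0.54 and 0.36. Zfp369, the mouse NRIF2, a relative of a neurotrophin receptor interacting factor, was at 14.3, 29.3 and 19.6 CPM in the KO lines and 13.8, 11.8 and 13.6 CPM in the WT lines (0.68 ± 0.30, and 0.33 without KO2). Zfp595 was at 12.4, 9.81 and 14.9 CPM in the KO lines and 9.001, 6.09 and 7.76 CPM in the WT lines (0.67 ± 0.22), and without KO2 it was 0.79. The 37 genes with all KO libraries above had a median log2 fold change of 0.35 and edgeR adjusted p of 0.479 to 0.728.

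The 7 genes with all KO libraries below the WT libraries were of other kinds, and Zfp715 was their only KRAB match. Zfp428 was at 28.4, 9.22 and 25.6 CPM in the KO lines and 34.9, 32.3 and 33.4 CPM in the WT lines. KO2 was far the lowest, and the log2 fold change of -0.71 ± 0.39 became -0.36 without it. Zfp771 was at 11.2, 9.67 and 10.4 CPM in the KO lines and 16.2, 15.3 and 11.5 CPM in the WT lines (-0.48 ± 0.18). Zfp385a was at 129, 126 and 107 CPM in the KO lines and 144, 156 and 148 CPM in the WT lines (-0.33 ± 0.11). Zfp715 was at 28.4, 28.4 and 27.3 CPM in the KO lines and 33.4, 32.4 and 34.4 CPM in the WT lines (-0.27 ± 0.09). Its 3 values within each group lay close together. Zfp277 had a log2 fold change of -0.31 ± 0.10, Zfp622, which acts in assembly of the large ribosomal subunit, -0.20 ± 0.08 and Zfp706 -0.19 ± 0.07. The edgeR adjusted p of the 7 genes ran from 0.495 to 0.606, so none passed. Without KO2, DESeq2 gave adjusted p of 0.0440 for Zfp706 and 0.0314 for Zfp385a.

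**Figure D3:**
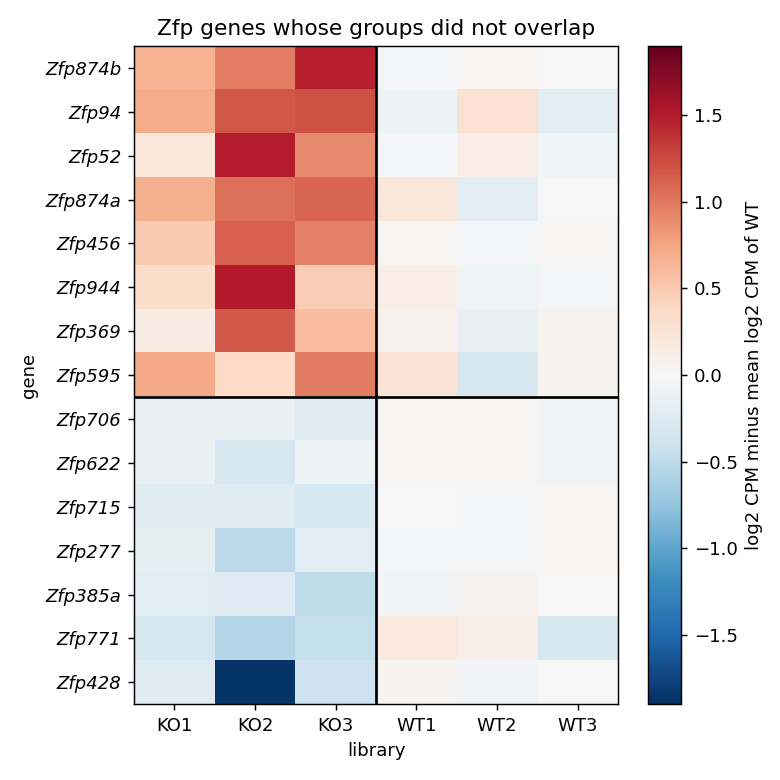
Log2 CPM minus the mean log2 CPM of the WT lines, by library, for the 8 largest upward and all 7 downward differences among Zfp genes whose KO and WT libraries did not overlap. In Zfp944 and Zfp52 KO2 is the darkest red of the row, and in Zfp428 it is the darkest blue.

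The genes of one cluster on chromosome 13 had the highest median among the clusters. Members at most 1 Mb apart formed 15 clusters of at least 4, which held 99 of the 220 genes. The chromosome 13 cluster (GRCm38, chr13:67069398-67683512) holds 9 members, all KRAB matches: Zfp708, Zfp595, Zfp953, Zfp456, Zfp429, Zfp874a, Zfp874b, Zfp58 and Zfp738. All 9 fold changes were above 0, with a median of 0.53, and 5 had all KO libraries above all WT libraries, where 11.1% of all genes did. Without KO2 and WT2 the median was 0.54. Among the 5 separated genes, Zfp456, Zfp874a and Zfp874b were members only through their KO values, so the choice of members favoured their rise. Zfp953 was at 13.5, 20.6 and 19.6 CPM in the KO lines and 12.6, 13.1 and 11.1 CPM in the WT lines (0.53 ± 0.21, edgeR adjusted p 0.528). The annotated ends of Zfp595 and Zfp953 overlap, so reads there may count for either. Zfp58, by contrast, was at 6.61, 7.48 and 9.99 CPM in the KO lines and 7.43, 6.66 and 8.25 CPM in the WT lines, and the groups overlapped. Over all 17 members on chromosome 13 the median was 0.46, with 16 above 0, and by library it stood at 0.19 in KO1, 0.04 in KO2 and 0.56 in KO3, against -0.08 in WT1, -0.46 in WT2 and -0.12 in WT3. The 311 other tested genes of that chromosome had a median of 0.11, with 186 above 0. Without KO2 and WT2 the median of these other genes was 0.007, with 163 above 0, and that of the 17 members 0.44, with 16 above 0. The other genes of at least 5 CPM between the ends of the cluster were Rsl1, also a KRAB zinc finger gene, and A530054K11Rik, with log2 fold changes of 0.77 ± 0.21 and 0.33 ± 0.19. Their median of 0.55 was as large as that of the members. Without the chromosome 13 members the family median was 0.11, and that of the KRAB matches 0.19.

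Clusters elsewhere varied, and their medians are followed by those without KO2 and WT2. The 12 members at chr17:21008941-23564226 all had fold changes above 0, with a median of 0.35 (0.34); here Zfp160 was at 24.3, 19.5 and 26.1 CPM in the KO lines and 19.7, 15.5 and 20.0 CPM in the WT lines (0.32 ± 0.15, edgeR adjusted p 0.562), with overlap. The 11 members at chr17:32765496-33631716, of which 9 are KRAB matches, had a median of 0.01 (0.09). On chromosome 7 the 5 members at chr7:12478280-12985717 had a median of 0.41 (0.43). Among them Zfp110, the mouse NRIF, which binds the p75 neurotrophin receptor, was at 65.3, 88.4 and 69.8 CPM in the KO lines and 49.0, 57.3 and 48.2 CPM in the WT lines. Its groups were apart (0.52 ± 0.17, edgeR adjusted p 0.495), and without KO2 and WT2 DESeq2 gave an adjusted p of 0.0298. Zfp329 beside it was at 19.4, 12.04 and 24.9 CPM in the KO lines and 13.2, 9.13 and 10.3 CPM in the WT lines (0.76 ± 0.28). The 5 KRAB matches at chr9:19622038-20605404 had a median of 0.26 (0.31), where Zfp266 was at 83.1, 57.2 and 81.6 CPM in the KO lines and 65.2, 52.0 and 64.4 CPM in the WT lines (0.26 ± 0.16). In Zfp329 and Zfp266 the KO2 value lay inside the WT range. The cluster at chr6:47835633-48621548, with 7 members and no KRAB match, had a median of -0.07 (-0.02). It includes Zfp746, the mouse PARIS, a repressor of Ppargc1a, at 75.03, 51.8 and 60.4 CPM in the KO lines and 69.4, 70.2 and 69.2 CPM in the WT lines (-0.18 ± 0.13). Zfp809, which in mouse embryonic stem cells silences murine leukaemia proviruses, lies in a chromosome 9 cluster and was at 24.2, 16.6 and 17.7 CPM in the KO lines and 23.0, 20.7 and 19.3 CPM in the WT lines (-0.13 ± 0.17). Its groups overlapped. Zfp646 on chromosome 7 was at 119, 102 and 122 CPM in the KO lines and 93.9, 91.1 and 98.1 CPM in the WT lines (0.25 ± 0.07, edgeR adjusted p 0.479), with all KO lines higher.

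**Figure D4:**
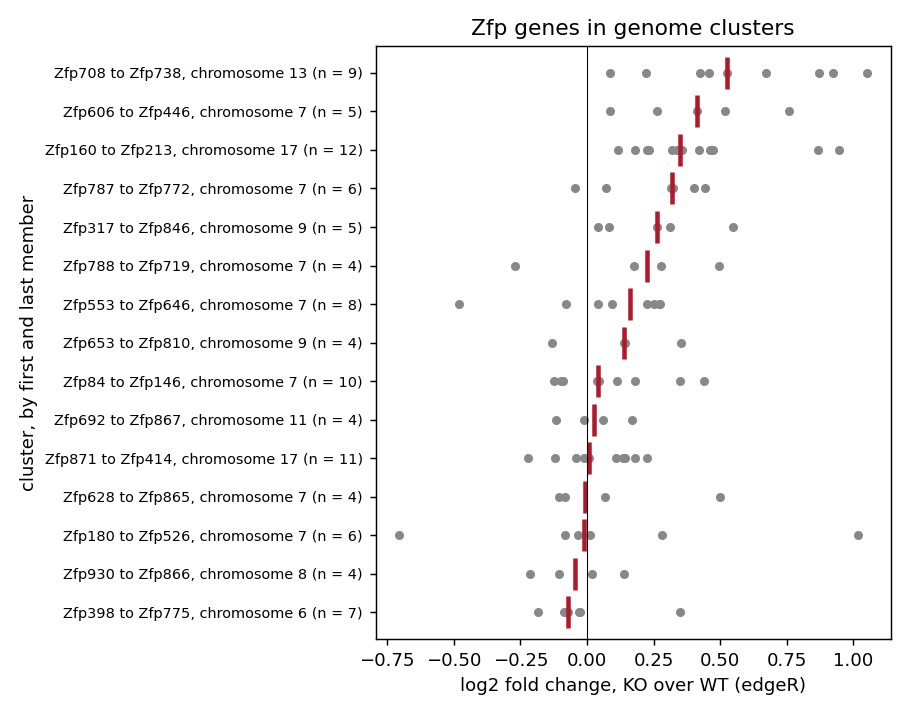
Log2 fold change, KO over WT, of each member (grey points) of the 15 genome clusters of at least 4 Zfp genes, with the cluster median as a red bar, clusters being ordered by median. The chromosome 13 cluster from Zfp708 to Zfp738 is at the top with a median of 0.53, and the chromosome 6 cluster from Zfp398 to Zfp775 at the bottom with -0.07.

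Fold changes moved with base composition. Transcripts of the members had a median GC content of 46.2%, against 50.2% for other genes of at least 5 CPM. The members' median fold change was 0.23 under 40% GC, 0.13 from 40 to 45%, 0.09 from 45 to 50%, 0.11 from 50 to 55% and 0.01 from 55% up. The other genes had 0.09, 0.04, 0.01, -0.01 and -0.02 over the same bins. With KO2 and WT2 left out the members' medians were 0.28, 0.11, 0.11, 0.12 and 0.12 and those of the other genes 0.06, 0.02, 0.00, -0.01 and -0.02, so that beyond the lowest bin the members no longer declined. With a trend on GC over all tested genes taken away, the family median was 0.07, that of KRAB matches 0.13 and that of the others 0.04. Members were higher than other genes in each bin, and the part of base composition in the difference between genotypes was not tested.

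**Figure D5:**
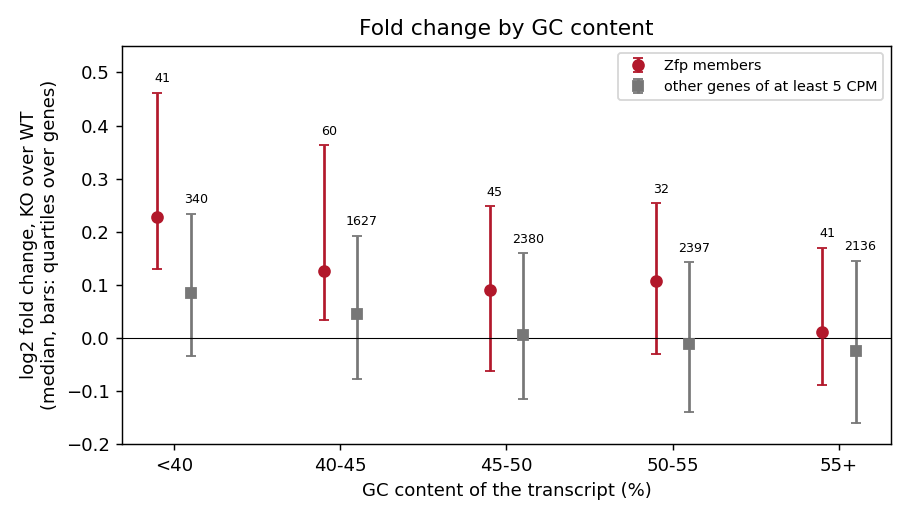
Median log2 fold change, KO over WT, with quartiles over genes as bars and the number of genes above, by GC content of the transcript, for Zfp members and for other genes of at least 5 CPM. The medians are highest in the lowest GC bin, 0.23 for members and 0.09 for other genes, and lowest in the highest bin, 0.01 and -0.02.

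A few members were far higher or far lower in KO2 than in WT1 and WT3. Zfp462, a large zinc finger protein with a role in mouse pluripotent cells, was at 54.97 CPM in KO2 and 15.2 CPM in WT2, and at 0 in the other 4 libraries. It was read only in the 2 libraries numbered 2, from 1109 counts in KO2 and 290 in WT2, and was the 1 member that the low count filter left untested. Zfp296, a partner of Klf4 in mouse pluripotent cells, was at 2.24, 25.1 and 3.09 CPM in the KO lines and 1.78, 12.8 and 2.96 CPM in the WT lines, again highest in both libraries numbered 2. Zfp760 was at 33.6, 0 and 32.0 CPM in the KO lines and 13.7, 12.2 and 24.3 CPM in the WT lines. Zfp318, which in mature mouse B cells is needed for IgD expression, was at 41.8, 0.149 and 63.8 CPM in the KO lines and 34.4, 23.4 and 37.0 CPM in the WT lines. Zfp579 was at 10.7, 0 and 8.38 CPM in the KO lines and 6.59, 2.05 and 4.40 CPM in the WT lines. Zfp27 was at 11.1, 0.297 and 15.2 CPM in the KO lines and 9.37, 6.56 and 11.6 CPM in the WT lines. KO2 held 0 counts of Zfp760 and of Zfp579, which allows up to 0.149 CPM, 3 counts of Zfp318 and 6 of Zfp27. In Zfp760, Zfp318 and Zfp579 KO1 and KO3 were above every WT line. Without KO2 the log2 fold changes were 0.93, 0.70, 1.09 and 0.47, and the edgeR adjusted p with all libraries ran from 0.935 to 0.985.

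WT2 leaned the same way as KO2. Against the mean of KO1 and KO3, KO2 was at least 2-fold lower in 29 members, and WT2 was lower than the mean of WT1 and WT3 in all 29. KO2 was at least 2-fold higher in 7 members, of which WT2 was higher in 4. Over the other genes of at least 5 CPM the lean was also common. There KO2 was at least 2-fold lower in 711, with WT2 lower in 647, and higher in 500, with WT2 higher in 466. The 36 members with a 2-fold difference were 16.4% of the members, against 13.3% of the other genes, and these contrasts share no library. Across the 220 genes the KO2 and WT2 differences had a Pearson r of 0.68 and a Spearman rho of 0.55, against 0.70 and 0.59 over the other 9096 genes; genes are not independent replicates. Over the 94 KRAB matches they were 0.40 and 0.51.

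Zfp259, Zfp593 and Zfp91 varied least over the 6 libraries. Zfp259, now Zpr1, a zinc finger protein that binds the EGF receptor, was at 104, 107 and 110 CPM in the KO lines and 102, 106 and 106 CPM in the WT lines. Zfp593 was at 37.0, 34.9 and 34.2 CPM in the KO lines and 38.0, 36.4 and 34.5 CPM in the WT lines. Zfp91, a ubiquitin ligase of non-canonical NF-kappaB signalling, was at 231, 229 and 224 CPM in the KO lines and 241, 211 and 233 CPM in the WT lines. Their groups overlapped, and the fold changes of 0.01, -0.06 and -0.02 were within their SEs of 0.06, 0.09 and 0.07.

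The partners of KRAB repression were read from a list of 43 symbols, of which 39 rows could be tested. No row passed the edgeR test, 6 were higher (15.4%, against 4.35% of all genes) and 2 lower (5.13%, against 5.1%) at an unadjusted p under 0.05. All KO libraries lay above in 8 of the 40 rows found (20.0%, against 11.1%) and below in 3 (7.5%, against 9.13%). The median log2 fold change was 0.05, with 20 of 39 above 0, and without KO2 and WT2 it was 0.0038. Trim28, the co-repressor that KRAB domains bind, was at 987, 711 and 986 CPM in the KO lines and 1107, 1092 and 1119 CPM in the WT lines (-0.33 ± 0.12, edgeR adjusted p 0.499). Setdb1, the methyltransferase it recruits, was at 153, 166 and 163 CPM in the KO lines and 135, 132 and 130 CPM in the WT lines (0.26 ± 0.07, edgeR adjusted p 0.479, DESeq2 adjusted p 0.0681). Both were separated between genotypes, in opposite directions, and KO2 was the lowest for Trim28. Mphosph8, a subunit of the HUSH silencing complex, was at 44.5, 48.6 and 60.1 CPM in the KO lines and 38.6, 40.7 and 42.2 CPM in the WT lines (0.31 ± 0.12). Atf7ip, a Setdb1 partner with 2 rows in the table, Smarcad1, a remodeller that binds Trim28, Cbx5, which encodes HP1 alpha, and the Trim28 kinase Atm also had all KO libraries above all WT libraries. Uhrf1, which guides maintenance DNA methylation, was at 550, 561 and 535 CPM in the KO lines and 594, 634 and 603 CPM in the WT lines (-0.17 ± 0.07). Their edgeR adjusted p, with that of Mphosph8, ran from 0.495 to 0.529, except that the second Atf7ip row had 0.609. Zfp57, the KRAB protein of imprinted loci, was at 0 in all libraries.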

How the data were processed

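RNA was extracted with an RNeasy kit and sequenced from TruSeq libraries, per the labels' protocols. The authors deposited raw counts per gene symbol, 1 column per library. Trim Galore, STAR, DESeq2 and GRCm38 are named in the submitters' processing notes; their versions, the annotation and the use of strand were not given in the sources used here. Genes that overlap, lie antisense or are near copies may therefore share reads.

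From the counts, edgeR 4.0.16 in R 4.3.3 was fitted over all 6 libraries and all genes: TMM scaling, the filterByExpr filter, and a robust, two-sided quasi-likelihood F test, with Benjamini-Hochberg adjustment over all genes tested. Error terms after ± are SEs of that fit. DESeq2 1.42.0, limma-voom (limma 3.58.1), RLE factors, library totals, other filters, a replicate block and leaving out each library were alternatives; leaving out WT2 and KO2 together was another. DESeq2 without each library or without both, splits by KRAB match and the GC trend (lowess fraction 0.3) removed were chosen after seeing the data. For library medians and correlations, log2 CPM had a prior count of 2. CPM were computed from column totals without a replacement of zeros. The CPM of 3 counts is the limit that a count of 0 allows, for counting error only. The 15019 rows without an adjusted p from DESeq2 did not enter its counts.

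Gene locations and promoter windows are RefSeq (GRCm38.p6): 210 members were located by symbol and 10 by an older symbol. GC content, length and proteins came from GENCODE transcripts of GRCm38; GC was known for 95.3% of tested genes. C2H2 fingers were counted as paired cysteines, a 12-residue spacer and paired histidines, and the KRAB match as a pattern for its A box; 12 of the 244 matching genes in the table held no finger. Zfp319 has 2 rows, of which 1 is a member.

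Same-numbered KO and WT libraries correlated in their deviations from the group means at 0.33, 0.64 and 0.46. Each was above the criterion of 0.1, and the numbers were treated as pairs in the block fit. KO3 with WT1 was also above it, at 0.41. Deviations within a group cancel out, so with KO2 and WT2 alike the criterion cannot tell how KO1, KO3, WT1 and WT3 pair. What a shared number means is not in the labels, and KO1 was closer to WT3 (0.36).

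The members, lists and motifs were chosen with earlier results of these data known. Genes were named by a rule: the 5 highest per kb, those past a test, up to 8 separated upward and downward, the 4 highest and lowest in KO2 against WT1 and WT3, the 3 most even, 2 on either side of 5 CPM and up to 2 per cluster by level, with up to 8 cofactors by p. The tests were checked on simulated data, in which DESeq2 recovered more of the changed genes than edgeR and also made more false calls. Counts were simulated independently for each library, without the difference that KO2 and WT2 share.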

Additional observations from a re-analysis of the deposited data

How the results depend on the processing

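The family median stayed above 0 and between 0.07 and 0.17 under every scaling, tool, filter, block and left-out library, with KRAB matches alone at 0.23; library totals alone moved the median of all genes to 0.04 and the family median to 0.15. No member passed edgeR under any setting. DESeq2 called 3 members with all libraries, 7 without WT2 and KO2, 10 without KO1, 15 without KO2, 1 without KO3, 2 without WT2 and none without WT1 or without WT3. These were 1.38%, 3.20%, 4.55%, 6.82%, 0.455%, 0.913% and 0.0% of members, where DESeq2 called 2.00%, 3.04%, 3.97%, 5.95%, 2.06%, 2.30% and at most 0.368% of all genes, so the calls rest on which libraries are kept. Zfp94 was called again without KO1 and without WT2, Zfp874a and Zfp874b without KO1, and none of the 3 without any other single library. Members with an unadjusted edgeR p under 0.05 numbered 25, from 8 to 58 with 1 library left out (3.64% without WT3 to 26.5% without KO2, against 3.65% and 18.8% of all genes) and 41 without WT2 and KO2 (18.7%, against 16.3%). Members with separated groups numbered 44, from 50 to 119 with 1 library left out (119 without KO2, or 54.1% against 44.1% of all genes; 68 without KO1, or 30.9% against 31.8%) and 133 without WT2 and KO2 (60.5%, against 55.6%); fewer libraries separate more readily by construction. The Cdk6 transcript was at 0.14, from -0.22 to 0.31 with 1 library left out, and -0.24 without WT2 and KO2. The replicate block, which uses the pairing by number, gave a family median of 0.09, changed no call and left 0 members past the test.

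The cause of changes of sign in single genes was not tested. With 1 library left out they ranged from -0.14 to 0.022 for Zfp106, -0.064 to 0.13 for Zfp146, -1.19 to 2.12 for Zfp296, -0.11 to 0.93 for Zfp760, -0.63 to 0.70 for Zfp318, -0.10 to 1.09 for Zfp579, -0.72 to 0.47 for Zfp27, -0.011 to 0.041 for Zfp259, -0.070 to 0.017 for Zfp91, -0.13 to 0.39 for Zfp248, -0.12 to 0.58 for Zfp189, -0.17 to 0.042 for Zfp560, -0.59 to 0.34 for Zfp658, -0.088 to 0.089 for Zfp672, -0.069 to 0.023 for Zfp282, -0.20 to 0.0017 for Zfp628, -0.15 to 0.086 for Zfp444, -0.18 to 0.015 for Zfp180, -0.056 to 0.11 for Zfp574, -0.22 to 0.28 for Zfp553, -0.20 to 0.054 for Zfp869 and -0.019 to 0.17 for Zfp26. By limma-voom Zfp760, Zfp318 and Zfp579 were at -2.42, -2.01 and -1.65, and with the replicate block at -0.65, -0.91 and -0.44. Without WT2 and KO2, Zfp27 was at 0.29, Zfp658 at 0.15, Zfp672 at 0.16 and Zfp444 at 0.12, and with library totals alone Zfp672 was at 0.016. At 17859519 to 24108563 counts per library, a count of 0 allows up to 0.124 to 0.168 CPM.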
